A study of Homo sapiens with 9 samples.

Results

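The genes that write, erase and supply DNA methylation, together with the epigenetic genes most often mutated in myeloproliferative neoplasms (MPN), were followed in SET2 cells with and without DYRK1A. The 10 genes were DNMT1, UHRF1, DNMT3A, DNMT3B, TET1, TET2, TET3, IDH1, IDH2 and ASXL1. They are known members of the pathway, taken from the table by symbol, and each matched 1 gene among the 60662 in the deposited table. All 10 passed the filter on low counts in every comparison.

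SET2 is a JAK2 mutant megakaryoblastic leukemia line, described in the labels as acute myeloid leukemia after MPN. RNA-seq was made from untreated cells in 3 libraries each of WT, of DYRK1A KO clone 11H1 and of a second KO clone, 14B5. DYRK1A is a kinase that starts assembly of the cell cycle repressor DREAM. Each clone grew from a single cell sorted after transient nucleofection of a Cas9 ribonucleoprotein, and was kept because all its indels at the target were out of frame. WT cells were the unedited line and not a single-cell clone, so the edit and the choice of a founder cell cannot be told apart in either clone. The labels do not say whether libraries came from separate cultures, so p values measure the spread between these libraries, which may be technical. The study pooled the clones as KO, and its text gives 5 KO libraries where 6 were deposited and used here.

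DNA methylation is copied after each round of replication by DNMT1, which UHRF1 recruits to DNA methylated on a single strand. DNMT3A and DNMT3B set new methylation. TET1, TET2 and TET3 oxidize 5-methylcytosine with 2-oxoglutarate as cosubstrate, and IDH1 in the cytosol and IDH2 in mitochondria make 2-oxoglutarate. Mutant IDH1 or IDH2 makes 2-hydroxyglutarate instead, which inhibits the TET enzymes. ASXL1 partners BAP1 in removing ubiquitin from histone H2A. Loss of TET2, ASXL1 or DNMT3A is common in MPN and related leukemias. RNA levels alone were measured here, and neither methylation nor mutations were read.

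Library totals ran from 32347779 to 60272245 expected counts. Mitochondrially encoded genes took 7.23% to 7.39% of counts in 11H1, 3.54% to 6.03% in WT and 3.30% to 3.92% in 14B5. DYRK1A RNA stood at 204 ± 12.8 CPM in WT, 190.4 ± 1.82 in 11H1 and 183 ± 8.74 in 14B5 (SD, n = 3 each). Its change was −0.09 in 11H1 (adjusted p = 0.131) and −0.17 in 14B5 (adjusted p = 0.0278) on the log2 scale, and an out-of-frame indel need not lower RNA. The 14B5 call was lost without WT 3 (−0.11, adjusted p = 0.138), 14B5 2 (adjusted p = 0.113) or 14B5 3 (0.103), and the 11H1 value was −0.045 without WT 3. The paper reports that western blots bore out DYRK1A KO or knockdown in HEL and SET2 cells, and no protein was measured here. Of 7 megakaryoblast markers, 6 reached 1 CPM in WT and in 11H1 and 5 in 14B5, and their summed level was 1925 to 1999 CPM in WT, 1474 to 1547 in 11H1 and 1555 to 1562 in 14B5. Markers of monocytes and granulocytes, chiefly LYZ, summed to 196 to 199 CPM in WT, 102 to 109 in 11H1 and 112 to 124 in 14B5. B cell markers summed to 22.4 to 24.8 CPM in WT, 16.2 to 16.7 in 11H1 and 11.4 to 13.4 in 14B5, and fibroblast and epithelial markers to 32.5 to 34.8, 18.7 to 21.2 and 16.1 to 18.1. T cell markers summed to 1.13 to 1.58 CPM in WT, 2.71 to 4.38 in 11H1 and 0.519 to 0.661 in 14B5. The part of these shifts in the results was not tested.

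Levels are given as CPM, the counts of a library scaled by its TMM-adjusted total. Changes are log2 fold changes (log2FC) from edgeR's quasi-likelihood test, with p values adjusted over all genes tested and a threshold of 0.05. In 11H1 versus WT 6 of the 10 genes were higher and 3 lower, where 31.8% and 32.8% of all genes tested were (64.6% in either direction). In 14B5 versus WT 4 were higher and 3 lower, against 24.9% and 28.7% of all genes tested (53.5% together). Thus DNMT1, UHRF1, DNMT3B and ASXL1 rose and IDH2 fell in each clone. The clones also differed directly: 6 genes were higher and 3 lower in 11H1 than in 14B5, against 31.6% and 32.1% of all genes tested (63.7% together). With the clones pooled, 4 genes were higher and 1 lower in KO than in WT, against 14.3% and 17.7% (32.0% together). The median log2FC of the 10 genes was 0.26 in 11H1 (−0.01 over all genes tested), 0.04 in 14B5 (−0.01), 0.25 in 11H1 versus 14B5 (−0.0044) and 0.07 in KO (0.02). The libraries of the compared groups did not overlap in 8, 7, 8 and 5 of the 10 genes in these comparisons, and in 68.7%, 60.9%, 68.7% and 36.6% of all genes tested. Both clones were compared with the same 3 WT libraries. The pooled test had the wider spread between libraries of a group (biological coefficient of variation 0.185, against 0.0583 and 0.0673 for the single clones), and DNMT3B and ASXL1 passed it narrowly.

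**Figure D1:**
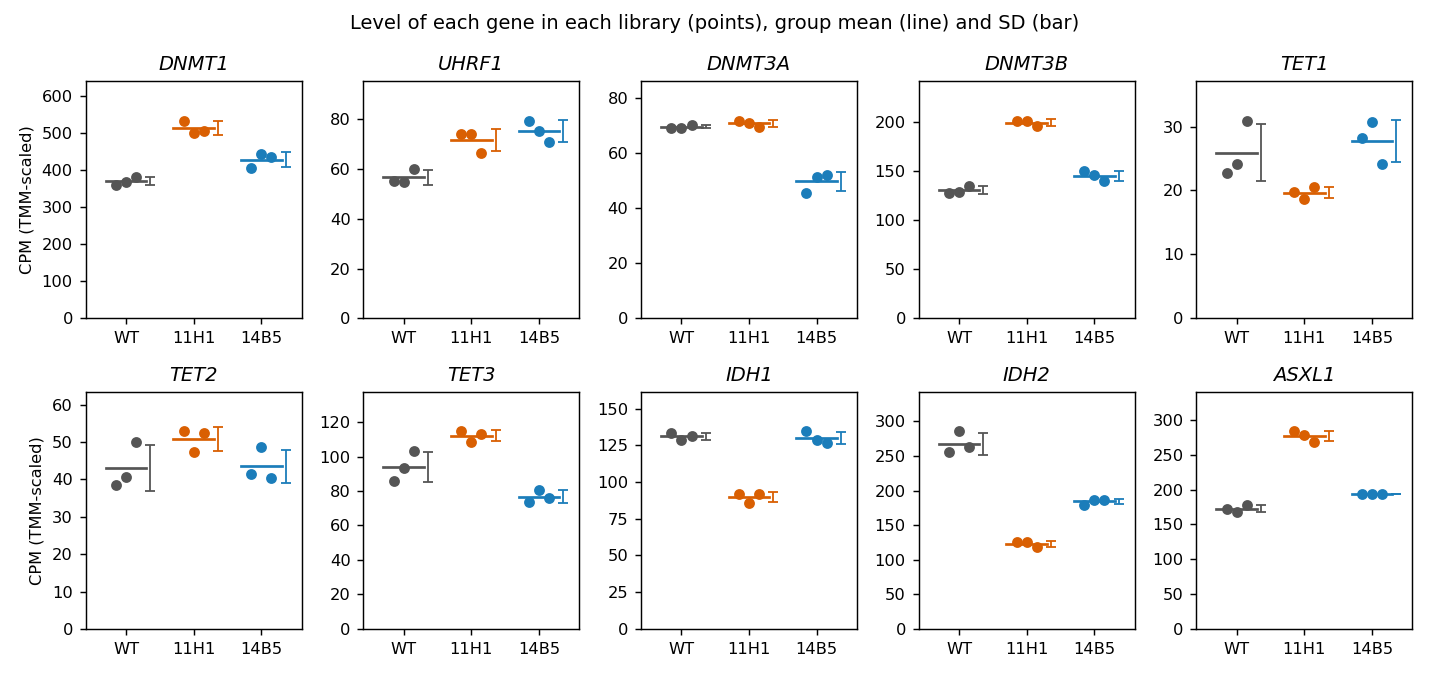
Level of each gene in CPM on TMM-scaled library sizes (vertical axes, from 0) in the 3 libraries of WT, 11H1 and 14B5; points are libraries, lines group means and bars the SD. The 3 groups separate fully for IDH2, where WT sits at 256 to 286, 14B5 at 180 to 187 and 11H1 at 118 to 126 CPM, and overlap for TET2.

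Maintenance of methylation was the one function in which both genes were higher in each clone than in WT. DNMT1, the maintenance methyltransferase, stood at 359, 368 and 381 CPM in the WT libraries, 533, 500.1 and 506 in 11H1, and 406, 442 and 435 in 14B5. All KO libraries lay above all WT libraries, and 11H1 lay above 14B5. The rise was 1.39-fold in 11H1 (log2FC 0.48, 95% interval 0.38 to 0.58, adjusted p = 3.44e-06) and 1.15-fold in 14B5 (log2FC 0.20, 0.08 to 0.31, adjusted p = 0.00756). 11H1 exceeded 14B5 by 0.27 (adjusted p = 0.000338). In KO versus WT the log2FC was 0.35 (adjusted p = 0.0160), and an exact permutation test of the 6 KO against the 3 WT libraries gave p = 0.0238 (2-sided), where 0.0119 is the smallest p the 84 splits allow. Setting 11H1 against all other libraries gave as large a difference for DNMT1, and also for DNMT3B, IDH2 and ASXL1 below. The test treats libraries as exchangeable though the KO libraries come from 2 clones. A p of 0.0238 thus does not tell a change in KO from one in 11H1 alone.

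DNMT1 lies on the minus strand of chr. 19 (10133345 to 10231286, GRCh38). The other genes tested that start within 2 Mb of it had a median log2FC of 0.18 in 11H1 and 0.17 in 14B5. DNMT1 thus stood 0.30 above its neighbors in 11H1 but 0.03 above them in 14B5. Such neighbor medians are given because single-cell clones can differ in copy number, which was not measured.

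UHRF1, which brings DNMT1 to newly copied DNA, stood at 55.4, 54.7 and 60.02 CPM in WT, 74.3, 74.1 and 66.7 in 11H1, and 79.6, 75.4 and 71.0 in 14B5. Every KO library lay above every WT library, and the clones overlapped. The rise was 1.27-fold in 11H1 (log2FC 0.35, 0.22 to 0.47, adjusted p = 0.000213) and 1.31-fold in 14B5 (log2FC 0.39, 0.26 to 0.52, adjusted p = 0.000277). UHRF1 was the only one of the 10 genes with no detected difference between clones and a rise in each (11H1 minus 14B5 −0.06, 95% interval −0.19 to 0.06, adjusted p = 0.356). In KO versus WT the log2FC was 0.37 (adjusted p = 0.00188), and the permutation test gave p = 0.0119, the smallest it can give. Its neighbors on chr. 19 (4903080 to 4962154 for UHRF1, plus strand) had medians of −0.14 and −0.07, opposite in sign to UHRF1. UHRF1 was also the only one of the 10 whose expected counts were not whole, in all 9 libraries, so that some of its reads were shared with another locus and its level is less certain.

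DNMT1 and UHRF1 were the 2 genes of the 10 with E2F-type letters in the start-site windows searched. Their windows are shown because E2F sites are where DREAM and the E2F factors bind. The windows come from RefSeq (GRCh38.p14) and run from 250 bases before a start site to 50 bases after it. All 10 genes matched, with 24 windows, and start sites outside these windows were not searched. The DNMT3B window (chr20:32779602-32779901) and the IDH2 window (chr15:90100572-90100871) lie inside their genes, whose outer ends are at 32762385 and 90102504. So do all windows of DNMT1, UHRF1 and IDH1, whose outer ends are at 10231286, 4903080 and 208266074. The search thus cannot tell whether such letters lie at other starts of these genes. The letters searched on both strands were TTTCCCGC, TTTCGCGC, TTTGCCGC and TTTGGCGC, chosen after the values were seen. The capitals mark the match, read 5′ to 3′ on the strand of the gene:
DNMT1, chr19:10194904-10195203, minus strand: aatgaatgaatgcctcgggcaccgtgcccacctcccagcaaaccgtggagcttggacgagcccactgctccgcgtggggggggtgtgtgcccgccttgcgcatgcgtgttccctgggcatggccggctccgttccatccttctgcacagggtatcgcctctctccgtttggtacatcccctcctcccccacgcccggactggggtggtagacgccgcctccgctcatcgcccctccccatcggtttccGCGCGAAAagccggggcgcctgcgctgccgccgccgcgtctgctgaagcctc
UHRF1, chr19:4909251-4909550, plus strand: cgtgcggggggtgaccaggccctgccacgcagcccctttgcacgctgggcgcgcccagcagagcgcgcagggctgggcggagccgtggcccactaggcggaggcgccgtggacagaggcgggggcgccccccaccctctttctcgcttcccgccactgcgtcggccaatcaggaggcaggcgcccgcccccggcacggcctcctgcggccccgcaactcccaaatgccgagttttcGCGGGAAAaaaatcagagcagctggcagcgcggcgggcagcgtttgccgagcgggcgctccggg
The DNMT1 match (TTTCGCGC on the reverse strand) begins 2 bases before the start site and spans it, and the UHRF1 match (TTTCCCGC on the reverse strand) begins 14 bases before it. A second UHRF1 window, chr19:4909894-4910193, holds TTTCGCGC at 160 bases before its own start site. Of all 35116 windows 3.31% hold such letters, and 3.99% of 27305 genes have such a window. The letters TTTGAA, part of the cell cycle homology region motif, were in windows of 3 of the 10 genes (DNMT3A, TET2 and ASXL1), against 18.2% of all genes. These are matches of letters in short windows, and no binding was measured.

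The de novo methyltransferases moved apart from each other. DNMT3B stood at 128, 129 and 135 CPM in WT, 202, 201 and 196 in 11H1, and 149.95, 146 and 140.1 in 14B5. All KO libraries lay above WT, by a wide margin in 11H1 and a narrow one in 14B5. The rise was 1.53-fold in 11H1 (log2FC 0.62, 0.52 to 0.71, adjusted p = 2.33e-07) and 1.10-fold in 14B5 (log2FC 0.14, 0.03 to 0.24, adjusted p = 0.0313), with 11H1 above 14B5 by 0.46 (adjusted p = 2.43e-06). The 14B5 call was lost when WT 1 (adjusted p = 0.0946), WT 2 (0.105), 14B5 1 (0.0723) or 14B5 2 (0.0717) was left out. Over both clones the log2FC was 0.40 (adjusted p = 0.0481; permutation p = 0.0238).

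DNMT3A, by contrast, fell in 14B5 and did not differ detectably from WT in 11H1. It stood at 69.1, 69.1 and 70.1 CPM in WT, 71.7, 70.8 and 69.4 in 11H1, and 45.6, 51.4 and 51.9 in 14B5. The 14B5 libraries lay below all others, and WT and 11H1 overlapped. The log2FC was 0.03 in 11H1 (−0.06 to 0.13, adjusted p = 0.543) and −0.50 in 14B5 (−0.63 to −0.38, adjusted p = 4.05e-05), a fold of 0.707, and 11H1 stood above 14B5 by 0.52 (0.40 to 0.63, adjusted p = 6.29e-06). Neighbors on chr. 2 (DNMT3A at 25227855 to 25342590, minus strand) had medians of 0.06 and 0.08. With the clones pooled its log2FC was −0.21 (−0.54 to 0.12, adjusted p = 0.314).

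Within each library, the number of DNMT3B counts per DNMT3A count was therefore higher in each clone, although by different routes. It was 1.88 ± 0.0422 in WT, 2.82 ± 0.0145 in 11H1 and 2.94 ± 0.307 in 14B5 (SD, n = 3), and the clones overlapped. The DNMT1 to DNMT3A ratio was 5.32 ± 0.120 in WT, 7.26 ± 0.188 in 11H1 and 8.64 ± 0.256 in 14B5, with no overlap between any groups. The UHRF1 to DNMT1 ratio was 0.153 ± 0.00448, 0.140 ± 0.00820 and 0.177 ± 0.0172, lowest in 11H1 and highest in 14B5 without overlap. A ratio within a library is free of library scaling but shows unequal change only, and 3 libraries against 3 cannot give a permutation p below 0.1.

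**Figure D2:**
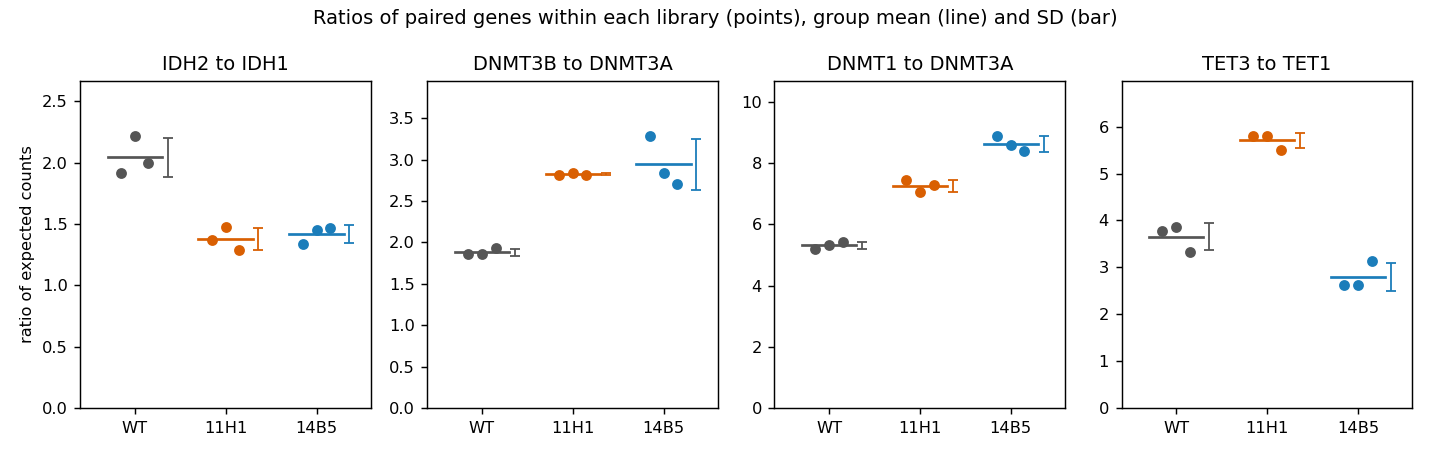
Ratios of expected counts of paired genes within a library (vertical axes, from 0) for WT, 11H1 and 14B5; points are libraries, lines group means and bars the SD (n = 3). The DNMT3B to DNMT3A ratio is 1.85 to 1.93 in WT and at least 2.701 in every KO library, and the TET3 to TET1 ratio rises to 5.51 to 5.81 in 11H1 and is 2.62 to 3.13 in 14B5.

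The TET dioxygenases, which start removal of methylation, did not move as a family. TET1 stood at 22.7, 24.1 and 30.9 CPM in WT, 19.8, 18.7 and 20.5 in 11H1, and 28.2, 30.7 and 24.2 in 14B5. The 11H1 libraries were the lowest, and WT and 14B5 overlapped. The log2FC was −0.39 in 11H1 (−0.60 to −0.17, adjusted p = 0.00464) and 0.08 in 14B5 (−0.18 to 0.35, adjusted p = 0.578), and 11H1 minus 14B5 was −0.49 (adjusted p = 0.000231). Its neighbors on chr. 10 (TET1 at 68560656 to 68694482, plus strand) had medians of 0.0034 in 11H1 and 0.14 in 14B5.

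TET3 moved in opposite directions in the clones. It stood at 85.5, 93.2 and 103 CPM in WT, 115, 109 and 113 in 11H1, and 73.7, 80.7 and 75.8 in 14B5, with no overlap between groups. The log2FC was 0.26 in 11H1 (0.13 to 0.40, adjusted p = 0.00280) and −0.31 in 14B5 (−0.46 to −0.16, adjusted p = 0.00341). The difference of 0.55 between clones (0.45 to 0.66, adjusted p = 1.29e-06) left a log2FC of 0.01 in KO versus WT (adjusted p = 0.979). Its neighbors on chr. 2 (TET3 at 73986404 to 74108176, plus strand) had medians of −0.17 in 11H1 and −0.03 in 14B5.

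TET2, the TET gene most often mutated in MPN, had the smallest range among the 3 group means of log2 CPM (0.25). It stood at 38.5, 40.7 and 50.1 CPM in WT, 52.9, 47.2 and 52.4 in 11H1, and 41.5, 48.6 and 40.3 in 14B5. The libraries overlapped in every comparison. The log2FC was 0.25 in 11H1 (0.06 to 0.44, adjusted p = 0.0233) and −0.00036 in 14B5 (−0.22 to 0.22, adjusted p = 0.998), with a difference between clones of 0.23 (adjusted p = 0.0137). The 11H1 call was lost without WT 1 (adjusted p = 0.0953), WT 2 (0.102), 11H1 1 (0.0997) or 11H1 3 (0.0808). The difference between clones was lost without 11H1 1 (adjusted p = 0.0641) or 11H1 3 (0.0621). Few genes lie near TET2 on chr. 4 (105145875 to 105279816, plus strand), and the 9 tested had medians of 0.04 and 0.02.

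The TET genes have long transcripts, and WT 3 was the highest WT library for all 3 of them. Genes with an annotated transcript of at least 9000 bases, a limit set after the values were seen, had a median log2 deviation from the WT mean of 0.09 in WT 3 against −0.07 in WT 1 (727 genes), while other genes were at 0.0027 and −0.0040. Genes of that length tested in each comparison (813, 813 and 790) had a median log2FC of 0.13 in 11H1, −0.12 in 14B5 and 0.23 in 11H1 versus 14B5. Other genes tested were at −0.01, −0.01 and −0.02. TET1 in 11H1 fell against that shift, by −0.25 when WT 3 was left out (adjusted p = 0.00368). TET2 and TET3 in 11H1 and TET3 in 14B5, like DNMT3A in 14B5, moved in its direction, and its part in these results was not tested.

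The genes that make 2-oxoglutarate were lower where they changed. IDH2, the mitochondrial enzyme, showed the largest change of the 10 genes. It stood at 256, 286 and 262 CPM in WT, 125, 126 and 118 in 11H1, and 179.8, 186 and 187 in 14B5. Every group was separate, with WT highest and 11H1 lowest. The fall left 0.462 of the WT level in 11H1 (log2FC −1.12, −1.23 to −0.997, adjusted p = 9.11e-09) and 0.680 in 14B5 (log2FC −0.56, −0.67 to −0.44, adjusted p = 1.26e-05). 11H1 was lower than 14B5 by a log2FC of −0.58 (adjusted p = 4.97e-07). In KO versus WT the log2FC was −0.80 (−1.17 to −0.44, adjusted p = 0.00447; permutation p = 0.0238), and all 6 KO libraries lay below all WT libraries. Its neighbors on chr. 15 (IDH2 at 90083045 to 90102504, minus strand) were also lower, with medians of −0.31 in 11H1 and −0.25 in 14B5, so that IDH2 stood 0.81 and 0.31 below them. Mitochondrially encoded RNA, given above, had its highest share in 11H1, where IDH2 was lowest. In 14B5, where IDH2 was also below WT, that share (3.30% to 3.92%) overlapped with the share in WT (3.54% to 6.03%). A link of this share to IDH2 was not tested.

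IDH1, the cytosolic enzyme, fell in 11H1 and not detectably in 14B5. It stood at 133, 129 and 132 CPM in WT, 91.6, 85.5 and 91.6 in 11H1, and 135, 129 and 127 in 14B5. The 11H1 libraries lay below all others, and WT and 14B5 overlapped. The log2FC was −0.54 in 11H1 (−0.65 to −0.44, adjusted p = 1.17e-06) and −0.03 in 14B5 (−0.13 to 0.07, adjusted p = 0.630), and 11H1 minus 14B5 was −0.53 (adjusted p = 1.46e-06). Its chr. 2 neighbors (IDH1 at 208236227 to 208266074, minus strand) were near 0, at −0.04 and −0.01. In both clones IDH2 fell further than IDH1: the IDH2 to IDH1 ratio was 2.05 ± 0.158 in WT, 1.38 ± 0.0916 in 11H1 and 1.42 ± 0.0718 in 14B5, and the clones overlapped.

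ASXL1, a chromatin scaffold whose truncation marks high-risk MPN, rose most of the 10 genes in 11H1. It stood at 171, 168 and 178 CPM in WT, 284, 278 and 269 in 11H1, and 194, 194 and 193 in 14B5. All KO libraries lay above WT, and 11H1 lay far above 14B5. The rise was 1.61-fold in 11H1 (log2FC 0.69, 0.59 to 0.79, adjusted p = 1.32e-07) and 1.11-fold in 14B5 (log2FC 0.15, 0.05 to 0.25, adjusted p = 0.0142), with 11H1 above 14B5 by 0.52 (adjusted p = 6.45e-07). The 14B5 call was lost without WT 2 (adjusted p = 0.0674). The pooled log2FC was 0.45 (adjusted p = 0.0475; permutation p = 0.0238). The calls of ASXL1 and DNMT3B in KO versus WT were lost without any 1 of the WT or 11H1 libraries (adjusted p 0.0743 to 0.142 for ASXL1 and 0.0774 to 0.154 for DNMT3B).

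ASXL1 and DNMT3B lie near each other on chr. 20, both on the plus strand (32358330 to 32439319 and 32762385 to 32809356), and followed a like course over the libraries. The ASXL1 to DNMT3B ratio was 1.32 ± 0.0169 in WT, 1.39 ± 0.0177 in 11H1 and 1.33 ± 0.0440 in 14B5. They share most of their neighbors, whose median log2FC was 0.14 (ASXL1) and 0.12 (DNMT3B) in 11H1 and 0.01 for each in 14B5. Both genes stood above these medians, by 0.55 and 0.50 in 11H1 and by 0.14 and 0.13 in 14B5.

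**Figure D3:**
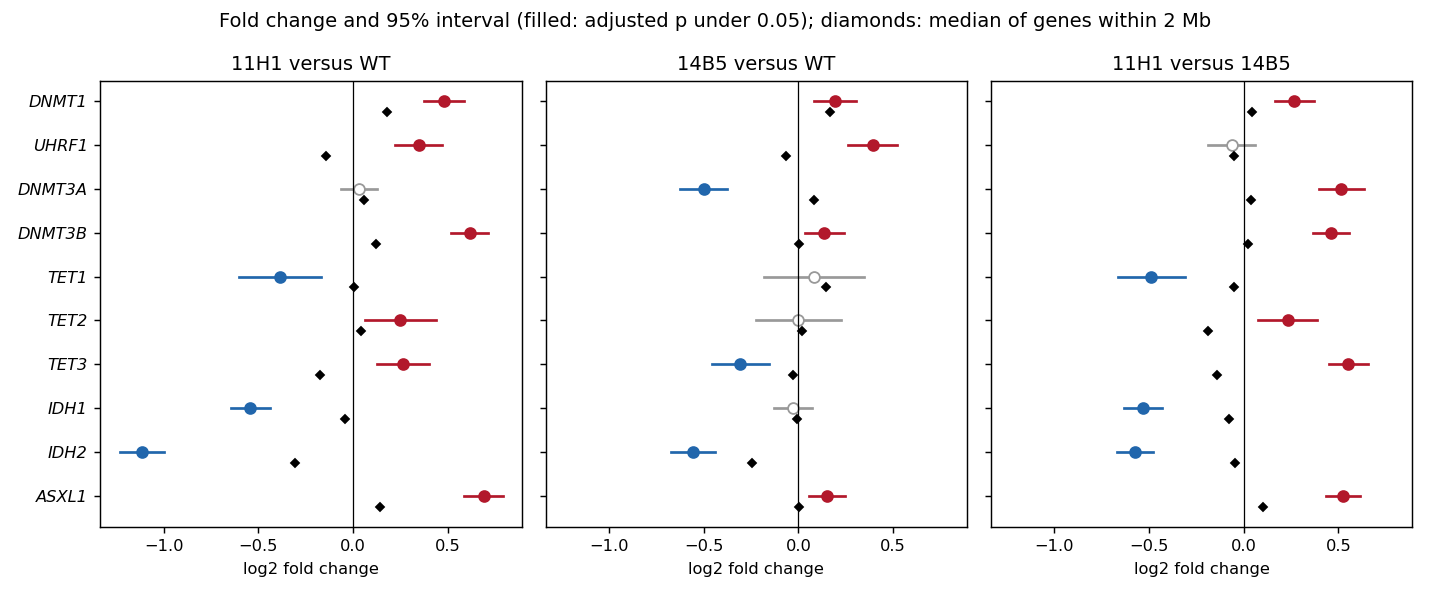
Log2 fold change (horizontal axes) of the 10 genes with its 95% interval in 11H1 versus WT, 14B5 versus WT and 11H1 versus 14B5; filled points have an adjusted p under 0.05 (red higher, blue lower, open grey not past it) and diamonds are the median of other genes within 2 Mb. IDH2 lies furthest from 0 at −1.12 in 11H1, TET3 changes sign between clones, and the DNMT1 point in 14B5 (0.20) lies next to its neighbors (0.17).

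Between genes, levels were compared as CPM per kilobase of merged exons, since counts grow with transcript length. In WT IDH2 was the most abundant at 95.2 ± 5.62, followed by DNMT1 (37.7 ± 1.11), DNMT3B (28.2 ± 0.849) and IDH1 (27.8 ± 0.491), the latter 2 overlapping. ASXL1 (12.6 ± 0.383), UHRF1 (11.0 ± 0.561), TET3 (7.65 ± 0.715) and DNMT3A (5.78 ± 0.0438) came next without overlap, and TET1 (2.79 ± 0.474) and TET2 (2.62 ± 0.373) overlapped at the bottom. TET3 was thus the most abundant TET gene and DNMT3A the least abundant methyltransferase, on this per-length scale. In 11H1 DNMT1 (52.4 ± 1.79) stood first and IDH2 (43.7 ± 1.52) overlapped with DNMT3B (43.1 ± 0.720), while in 14B5 IDH2 (65.5 ± 1.38) stayed above DNMT1 (43.7 ± 1.96). In 14B5 UHRF1 (14.6 ± 0.830) and ASXL1 (14.1 ± 0.0247) overlapped. With the longest annotated transcript as the length, 4 of the 10 ranks in WT changed. IDH2 kept the first rank there (99.4), IDH1 (53.7) stood above DNMT3B (30.1), and TET2 (4.24) stood above TET1 (2.79) without overlap, while DNMT1 passed it in 14B5 (79.1 against 68.4).

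**Figure D4:**
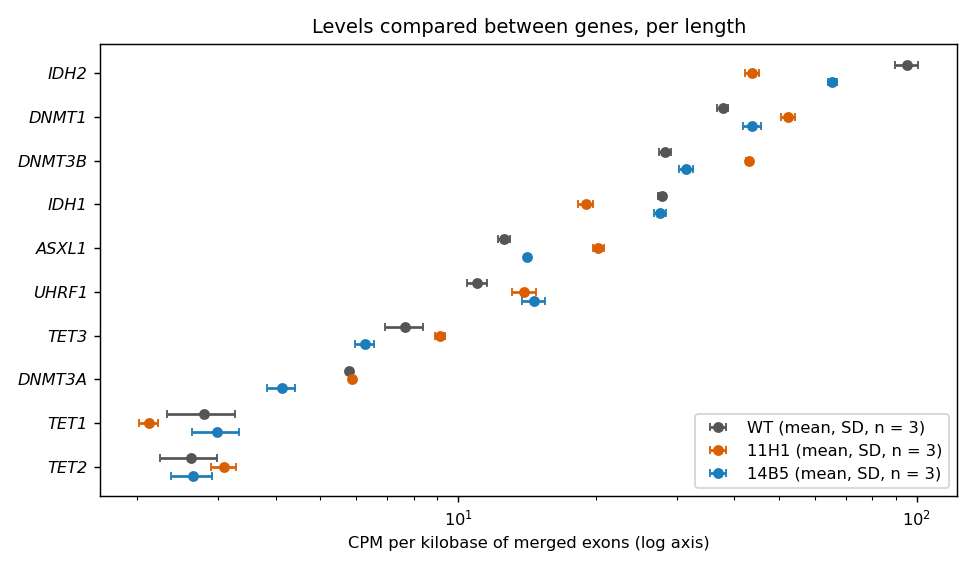
Level of each gene per length, in CPM per kilobase of merged exons on a log axis, as the mean and SD of the 3 libraries of WT, 11H1 and 14B5. WT levels run from 2.62 for TET2 to 95.2 for IDH2, and IDH2 in 11H1 falls to 43.7, beside DNMT3B at 43.1.

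The genes whose pattern over the 9 libraries was closest to the 3 members that varied most between groups were sought among 13580 genes of at least 1 CPM, by the root mean square difference of centered log2 CPM. For IDH2 they were GBP1 (0.0346) and AIF1L (0.0484), with AIF1L at 64.0, 68.6 and 64.1 CPM in WT, 28.7, 28.8 and 26.9 in 11H1 and 42.8, 45.3 and 46.1 in 14B5. For ASXL1 they were NFRKB (0.0247) and SLC25A44 (0.0344), and for DNMT3B they were ZCCHC8 (0.0332) and ZNF202 (0.0364). Genes of a group share their libraries, so the closeness is a description.

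Other genes of the methylation pathway were read from lists of known members, beside the shares of all genes tested that were higher and lower: 31.8% and 32.8% in 11H1, 24.9% and 28.7% in 14B5. Medians over all genes tested were −0.0066 and −0.014. Of maintenance factors and methyl-CpG readers (14 listed), 6 of 13 tested were higher and 1 lower in 11H1, and 7 of 14 higher and 1 lower in 14B5, where 31.8% and 24.9% of all genes tested were higher. HELLS, a remodeler needed for maintenance, rose from 47.8 CPM to 65.1 in 11H1 (log2FC 0.45, adjusted p = 7.18e-06) and 57.1 in 14B5 (0.24, adjusted p = 0.00140). The reader MBD1 rose by 0.47 in 11H1 (adjusted p = 1.90e-05) and 0.19 in 14B5 (adjusted p = 0.00678), while its neighbors had medians of −0.56 and −0.14. CDCA7L, a relative of the HELLS partner CDCA7, was the one that fell in each clone, from 28.9 CPM to 14.4 (−0.995, adjusted p = 5.22e-08) and 17.3 (−0.75, adjusted p = 1.62e-06). PCNA, the replication clamp to which DNMT1 binds, differed most between clones among genes of this list with a mean of 1 CPM or more over the 9 libraries, at 228 CPM in WT, 238 in 11H1 (log2FC 0.07, adjusted p = 0.193) and 344 in 14B5 (0.58, adjusted p = 2.99e-06). DNMT3L, named after its values were seen, differed by −1.54 (adjusted p = 0.00894) at 0.0853 CPM in 11H1 and 0.251 in 14B5. The list median was 0.09 in 11H1 and 0.14 in 14B5.

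Of the demethylation and base repair genes (16 listed), 5 of 15 tested were higher and 3 lower in 11H1, and 7 of 14 higher and 3 lower in 14B5. In 11H1 the higher share was near the 31.8% of all genes tested, and in 14B5 that share was 24.9%. Of all genes tested, 32.8% were lower in 11H1 and 28.7% in 14B5. The glycosylases NEIL3 and MBD4 rose in each clone, NEIL3 by 0.40 (adjusted p = 0.000232) and 0.69 (adjusted p = 1.19e-05), and MBD4 by 0.24 (adjusted p = 0.00109) and 0.62 (adjusted p = 2.11e-06). MBD4 stood at 45.0 CPM in WT, 52.9 in 11H1 and 69.8 in 14B5, and both genes were higher in 14B5 than in 11H1. OGT, an enzyme that glycosylates nuclear proteins and binds TET enzymes, went the other way in each clone: from 283 CPM it rose to 434 in 11H1 (log2FC 0.63, adjusted p = 7.16e-07) and fell to 235 in 14B5 (−0.28, adjusted p = 0.000940). Without WT 2, 4 genes of this list were higher and 2 lower in 14B5.

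The genes of methyl donor and 2-oxoglutarate metabolism (21 listed, all tested) had 13 lower and 5 higher in 11H1 (median −0.28), where 32.8% and 31.8% of all genes tested were. The list also holds enzymes downstream of 2-oxoglutarate, such as OGDH and SDHA, so these are not counts of supply genes alone. In 14B5 3 were lower and 6 higher (median −0.05), against 28.7% and 24.9%. In 11H1 versus 14B5 12 were lower and 2 higher, against 32.1% and 31.6% of all genes tested. SDHA, a subunit of succinate dehydrogenase, fell from 308 CPM to 127 in 11H1 (−1.27, adjusted p = 1.04e-09) and 172 in 14B5 (−0.86, adjusted p = 1.62e-07), and its neighbors had medians of −0.71 and −0.86. MAT2A, which makes the methyl donor S-adenosylmethionine, rose in 11H1 from 282 to 443 CPM (0.66, adjusted p = 1.19e-06) and stood at 302 in 14B5 (0.08, adjusted p = 0.288).

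Of the polycomb and histone genes mutated in myeloid neoplasms (20 listed, 19 tested), 14 were higher and 2 lower in 11H1 (median 0.42), and 7 were higher and 2 lower in 14B5 (median 0.07), where 31.8% and 24.9% of all genes tested were higher in 11H1 and in 14B5. Lower were 32.8% and 28.7% of all genes tested. Between clones 11 were higher and 4 lower in 11H1 (median 0.33), against 31.6% and 32.1% of all genes tested. Genes with a transcript of at least 9000 bases had medians of 0.13 in 11H1, −0.12 in 14B5 and 0.23 in 11H1 versus 14B5. The part of transcript length in these counts was not tested. EED, a core subunit of polycomb complex PRC2, rose from 147 CPM to 187 (0.36, adjusted p = 6.42e-05) and 230.2 (0.63, adjusted p = 7.98e-06). The histone methyltransferase SETD2 rose by 0.64 (adjusted p = 1.36e-05) and 0.22 (adjusted p = 0.0322), the latter call being lost without WT 1 (adjusted p = 0.103), WT 2 (0.133), 14B5 1 (0.0578) or 14B5 2 (0.0899) and the value being 0.33 without WT 3. EZH1, a catalytic subunit of PRC2, rose by 0.68 in 11H1 (adjusted p = 7.77e-07) and was at −0.16 in 14B5 (adjusted p = 0.0388), a call lost without WT 1, WT 3 or any 14B5 library (adjusted p 0.0777 to 0.141). KMT2D, whose transcript is long, differed most between clones among the genes of this list with a mean of 1 CPM or more over the 9 libraries: it stood at 139 CPM in WT, 281 in 11H1 (1.03, adjusted p = 1.75e-07) and 121 in 14B5 (−0.22, adjusted p = 0.213). The 14B5 value was −0.039 without 14B5 1, and −0.39 and past the threshold without 14B5 3 (adjusted p = 0.0136). ASXL3, a relative of ASXL1 below that level and named after its values were seen, stood at 0.0422 CPM in WT, 1.10 in 11H1 and 0.268 in 14B5, with 11H1 above 14B5 by 2.05 (adjusted p = 3.87e-05).

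DNMT1 and UHRF1 are made mostly in S phase, so genes of S phase were read beside them. Of 14, 11 were higher and 1 lower in 11H1 (median 0.21), and 12 higher and 1 lower in 14B5 (median 0.33), beside the same 31.8% and 24.9% of all genes tested that were higher. Their summed level was 3418 to 3473 CPM in WT, 3718 to 3796 in 11H1 and 4236 to 4326 in 14B5, and so was highest in 14B5. DNMT1 was higher in 11H1 than in 14B5, and UHRF1 did not differ detectably between the clones. GINS2 and MCM4, parts of the replicative helicase, rose by 0.36 (adjusted p = 0.000162) and 0.30 (adjusted p = 7.21e-05) in 11H1 and by 0.71 (adjusted p = 3.74e-06) and 0.58 (adjusted p = 2.52e-06) in 14B5. MCM6 fell, by −0.55 (adjusted p = 7.40e-07) and −0.29 (adjusted p = 0.000466), and its neighbors had medians of −0.70 and −0.64. SLBP, which binds histone RNA, rose by 0.12 in 11H1 (adjusted p = 0.0282; 0.0521 to 0.105 without WT 1, WT 2 or any 11H1 library) and 0.53 in 14B5 (adjusted p = 6.88e-06). Whether more cells in S phase lie behind the levels of DNMT1 and UHRF1 was not tested, and in bulk samples a change in the share of cells and in RNA per cell cannot be told apart.

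**Figure D5:**
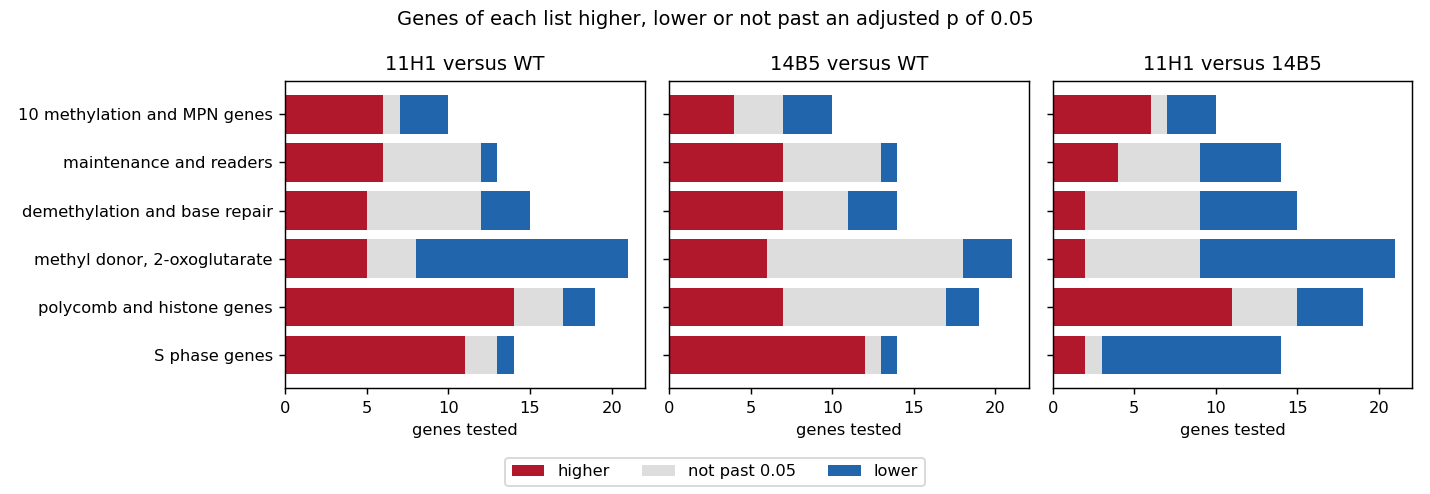
Number of genes tested in each list (horizontal axes) that were higher (red), not past an adjusted p of 0.05 (grey) or lower (blue) in 11H1 versus WT, 14B5 versus WT and 11H1 versus 14B5. The supply genes have 13 of 21 lower in 11H1 and 3 in 14B5, and the polycomb and histone genes 14 of 19 higher in 11H1 and 7 in 14B5.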

How the data were processed

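RNA-seq of 9 SET2 libraries was analysed. The deposited values were RSEM expected counts (estimated counts, in which reads matching several genes are divided among them), not normalized for depth or length by the authors. Per the submitters' processing notes, STAR 2.7.9a, Picard and RSEM were used on GRCh38; the annotation release and counting strand are not given in the sources used here. The study describes a stranded mRNA kit, the labels another kit. Overlapping genes were minor: the largest, COX20P1, held 3.30% as many counts as TET1. Coordinates and lengths came from GENCODE v29 (GRCh38), matched by identifier without version for 58542 genes (96.5%), and promoter windows from RefSeq GRCh38.p14.

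Expected counts were rounded and fitted with edgeR 4.0.16 in R 4.3.3 (TMM, filterByExpr, quasi-likelihood F test, Benjamini-Hochberg adjustment, threshold 0.05) for each clone versus WT, 11H1 versus 14B5 and KO (n = 6) versus WT. Single genes also had a 2-sided exact permutation test over libraries. Neighbors were genes tested that start within 2 Mb. The members and lists were chosen with earlier results of these data known. All 10 members were named, and of each list, at a mean of 1 CPM or more, up to 3 genes past the threshold in both clones with the largest mean change, plus the 1 with the largest difference between clones. Some genes that this rule covers are not reported here. Alternatives were other size factors, DESeq2 1.42.0, limma-voom 3.58.1, other filters and gene sets, a replicate block, a 3-group fit, a minimum fold and each library left out. On simulated counts with a log2FC of 1, 86.7%, 89.7%, 82.1% and 73.0% of changed genes were recovered among 16424, 16272, 16118 and 16747 genes in these comparisons. Only 195 or 196 of these genes were changed, far fewer than were called in the data. The simulation thus did not test smaller changes or change in a large share of genes. Within groups, the chi-square per gene between libraries was 4.04 to 35.8, where an identical column would give 0 and counting error alone about 1. No column was thus a copy of another, which does not tell whether libraries share a culture or an RNA sample. For a gene at 0 the upper limit was 3 counts, or 0.0498 to 0.0927 CPM by library, for counting error only.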

Additional observations from a re-analysis of the deposited data

Results flagged for a closer look

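Between the clones, 9 of the 10 genes differed by edgeR's quasi-likelihood test with adjustment over all genes, where 63.7% of all genes tested did. On the log2 scale 11H1 exceeded 14B5 by 0.27 for DNMT1, 0.52 for DNMT3A, 0.46 for DNMT3B, 0.23 for TET2, 0.55 for TET3 and 0.52 for ASXL1. It was below 14B5 by −0.49 for TET1, −0.53 for IDH1 and −0.58 for IDH2. TET3 alone of the 10 passed the threshold in opposite directions in the clones. Of the other named genes, KMT2D (1.23), OGT (0.89) and MAT2A (0.56) were higher in 11H1, and PCNA (−0.53) and SLBP (−0.42) were lower. OGT, too, was past the threshold in opposite directions.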

How the results depend on the processing

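IDH2 kept its direction and its call in each comparison under every alternative run. With a fold beyond 1.2 required, 5 of the 10 genes passed in 11H1, 3 in 14B5 and 1 (IDH2) in KO versus WT. Of all genes tested, 6558 of 16675 then passed in 11H1 and 4582 of 16537 in 14B5, and other totals are given below. In KO versus WT 3 genes passed (2 higher, 1 lower, in place of 4 and 1) with DESeq2 size factors, limma-voom, at least 10 counts in every library or protein-coding genes only, 2 with the replicate block, and 2 to 5 when each library was left out. In the 3-group fit 7 passed (4 higher, 3 lower), with DNMT3A (adjusted p = 0.000528) and IDH1 (3.02e-05) gained. That fit averages the clones and takes its error from libraries within a group, so the difference between clones does not enter the error. In the single-clone tests DNMT3A was at 0.03 in 11H1 and IDH1 at −0.03 in 14B5, neither past the threshold. In every alternative that lost calls in KO versus WT, DNMT3B and ASXL1 were among those lost, and without WT 1 or WT 2 DNMT1 was lost too.

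Direction turned only in values near 0. For TET2 in 14B5 it was 0.012 with DESeq2 size factors, 0.010 with the DESeq2 Wald test, 0.0070 with limma-voom, 0.036 without a filter, 0.0012 with the replicate block, 0.016 in the 3-group fit and −0.073 to 0.14 with each library left out. IDH1 in 14B5 was 0.0089 without a filter. TET1 ran from −0.0017 (without WT 1) to 0.24 (without WT 3) in 14B5 and from −0.22 to 0.019 in KO versus WT with each library left out. TET3 in KO versus WT was −0.018 with limma-voom, −0.0098 with at least 10 counts, −0.00036 with protein-coding genes, −0.017 in the 3-group fit and −0.061 to 0.078 with each library left out. The cause was not tested.

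Over all genes tested, the minimum fold left 6558 of 16675 in 11H1 and 4582 of 16537 in 14B5. It left 5481 of 16352 in 11H1 versus 14B5 and 2794 of 17080 in KO versus WT. The 3-group fit gave 10245 calls in KO versus WT. In 11H1 and 14B5 the minimum fold left 4 of 13 and 2 of 14 maintenance and reader genes. It left 4 of 15 and 2 of 14 demethylation genes, and 10 and 2 of the 21 methyl donor and 2-oxoglutarate genes. Of the 14 S phase genes it left 2 and 6, and of the 19 polycomb and histone genes 15 and 3.

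Same-numbered libraries did not deviate together (r −0.145 to 0.0581 over 9 pairs), so the numbers do not pair them. With the replicate block DNMT3B (adjusted p = 0.109) and ASXL1 (0.0686) lost their calls in 14B5, and DNMT1 (0.0514) in KO versus WT. With 3 libraries a group and 1 founder a clone, no value speaks for other DYRK1A KO cells.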

Other observations

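Most of the germline genes usually silenced by promoter methylation were near the limit of detection. Of 17 such genes, 13 had at most 3 counts in every library, and all 17 had a mean under 1 CPM in every group. Their summed level was 1.45 to 1.56 CPM in WT, 1.22 to 1.34 in 11H1 and 0.587 to 0.770 in 14B5. MOV10L1, a helicase of the piRNA pathway, gave most of it, at 0.958 CPM in WT, 0.992 in 11H1 (log2FC 0.06, adjusted p = 0.780 by edgeR) and 0.545 in 14B5 (−0.83, adjusted p = 0.00844). MOV10L1 had 24 to 56 counts in a library. TDRD9, of the same pathway, stood at 0.322 CPM in WT, 0.0752 in 11H1 and 0.0687 in 14B5. It was the other of the 2 genes tested against WT and was called lower in each clone. Of all genes tested, 32.8% were lower in 11H1 and 28.7% in 14B5. The limit for a count of 0 was 0.0560 to 0.0927 CPM in the 11H1 libraries and 0.0498 to 0.0672 in those of 14B5. DDX4, TDRD1 and SYCE1 were at 0 counts in all 9 libraries. No DNA methylation was measured at these genes.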
